A study of Mus musculus with 8 samples.

Results

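The genes described here control how mouse macrophages sense and take up sterols: the transcription factors Srebf1 and Srebf2, their escort Scap, the protease Mbtps1, the retention proteins Insig1 and Insig2, the sterol carrier Stard4, the ubiquitin ligase Mylip and the phosphatidate phosphatase Lpin1. They were taken as a named list of 9 genes, and all 9 were among the 21528 genes tested. The list was read from 17 array probes, of which 16 passed the filter on dim probes. The left-out probe was a dim one for Lpin1.

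The study used J774.1, an established macrophage-like line of BALB/c mouse origin. Cells were left as controls or were given isorhamnetin at 10 µM, tamarixetin at 10 µM or Torin1 at 1 µM for 6 h. Isorhamnetin and tamarixetin are plant flavonols, isomeric methyl ethers of quercetin that carry the methyl on adjacent hydroxyls of the same ring. Torin1 is an inhibitor of the mTOR kinase. Each of the 4 groups had 2 biological replicates, each read on its own one-colour Agilent array; whether controls received vehicle, and for how long they were kept, are details not given in the sources used here. All the cells are of 1 line, and whether the replicates were grown on separate occasions is not stated, so p-values measure the spread between these arrays.

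SREBP precursors sit in the endoplasmic reticulum membrane bound to Scap. When membrane sterol is low, Scap escorts them to the Golgi, where proteases release the part that enters the nucleus and switches on genes for sterol synthesis, fatty acid synthesis and lipoprotein uptake. When sterol is plentiful, the Insig proteins hold Scap back, and liver X receptors switch on sterol efflux genes and Mylip, whose product limits lipoprotein uptake. The kinase complex mTORC1 promotes SREBP activity, in part by keeping lipin-1 out of the nucleus. In macrophages these controls set how much cholesterol the cell makes, takes in and exports.

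Levels below are log2 signals relative to the array's own 75th percentile of probe signal, so 0 marks that percentile. A gene is called changed when its adjusted p from limma, with Benjamini-Hochberg adjustment over all 21528 genes, is under 0.05. Of these, 12937 carry a RefSeq gene symbol, and the rest stand under the array's own name for the probe's target. Shares of all genes below are over both kinds, whereas the 9 genes all carry a symbol. The 75th percentile lay between 324.2 and 403.8 units, 41.5% to 52.3% of probes were well above background, and no spot of these probes was saturated. All 9 macrophage markers looked up were well above background on all 8 arrays. Of the B cell, fibroblast and epithelial or hepatocyte markers none was above background on every array, and the last list held none on any array. The neutrophil markers S100a8 and Elane and the dendritic marker Siglech were above background on all 8. Of 4 T cell markers, 2 (Cd3e and Cd4) were above background on every array, and the summed T cell signal was 5.13 and 5.55 times the 75th percentile in controls against 3.15 and 3.5 with Torin1. The summed macrophage signal was 691 and 700 in controls against 725 and 708 with Torin1; the part of these shifts in the results was not tested. Controls and isorhamnetin lay in the upper row of the slide and tamarixetin and Torin1 in the lower row. Position and group thus cannot be told apart, and Torin1 is therefore also set beside tamarixetin from its own row. With 2 arrays a group, values without overlap are common. Against control they were seen for 50.3% of all genes with isorhamnetin, 45.3% with tamarixetin and 79.0% with Torin1. Between the isomers the share was 41.6%, and for Torin1 against tamarixetin it was 71.2%.

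With Torin1, messages of both transcription factors, Insig1, Stard4 and Lpin1 fell and that of Mylip rose. That is 5 lower and 1 higher of 9 genes, 66.7%, against 49.1% of all genes called in this comparison (29.1% lower and 20% higher). Scap, Mbtps1 and Insig2 did not pass the test. The median log2 difference was -0.44 over the 9 genes and -0.08 over all genes. The same 6 genes were called under every alternative in which they were tested. In bulk RNA, fewer expressing cells and less RNA per cell cannot be told apart.

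**Figure D1:**
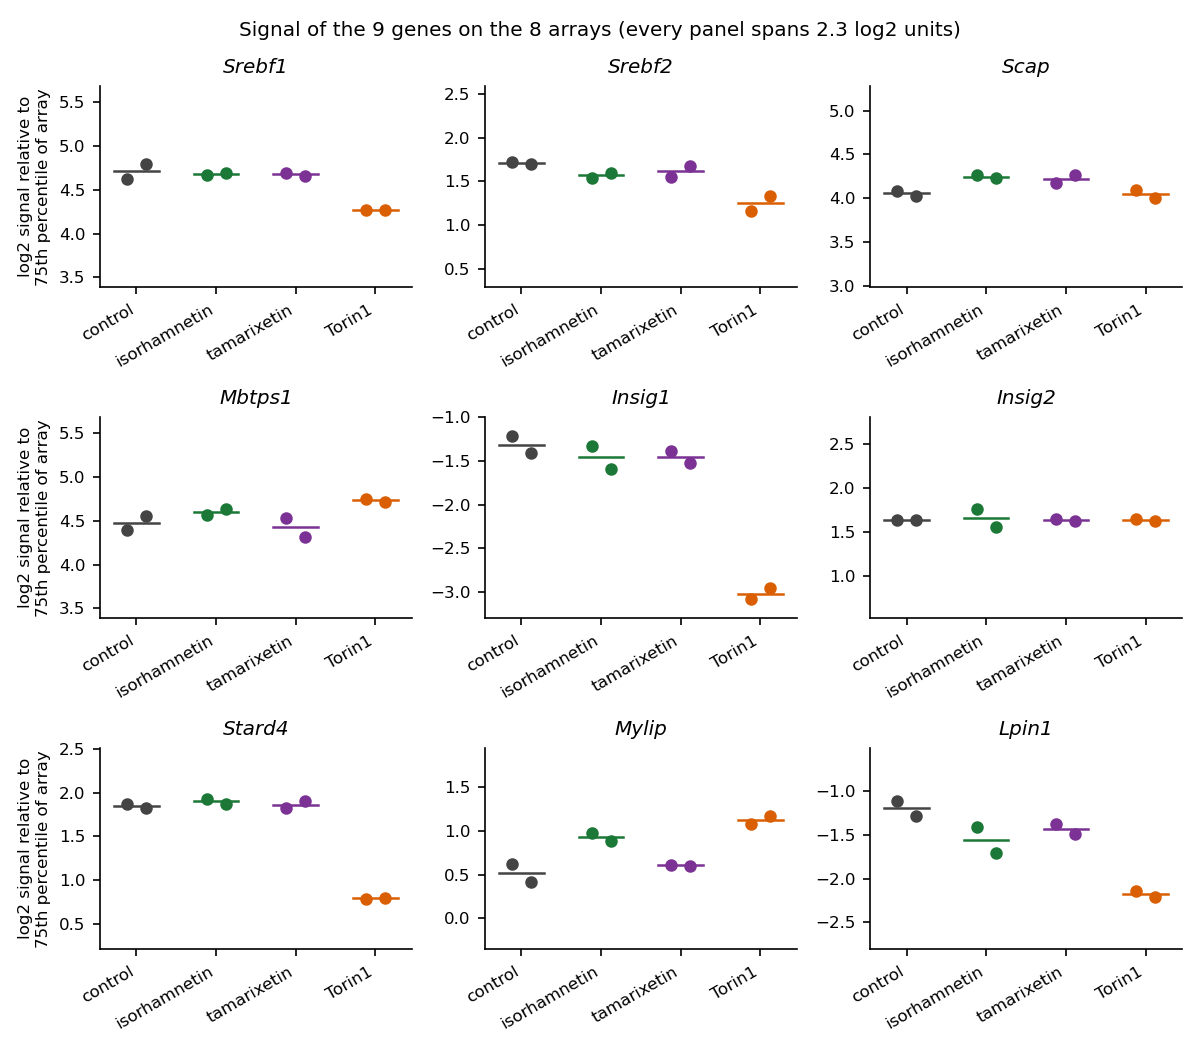
Level of each of the 9 genes on each of the 8 arrays, as log2 signal relative to the array's 75th percentile, with the group mean as a bar. The Torin1 arrays sit below all others for Insig1, Stard4, Lpin1, Srebf1 and Srebf2. They sit above all others for Mylip and for Mbtps1, which was not called against control.

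Among the transcription factors, Srebf1, which leans towards fatty acid genes, read 4.62 and 4.80 in controls, 4.67 and 4.69 on the isorhamnetin arrays, 4.69 and 4.66 on the tamarixetin arrays and 4.27 on both Torin1 arrays. The Torin1 arrays were the lowest of the 8. The log2 difference from control was -0.44 ± 0.07 (SE, n = 2 per group; adjusted p = 0.00458), or 73.7% of the control level, and -0.27 (adjusted p = 0.0119) under quantile normalization. Srebf2, which leans towards sterol genes, read 1.72 and 1.70 in controls, 1.54 and 1.60 on the isorhamnetin arrays, 1.55 and 1.68 on the tamarixetin arrays and 1.16 and 1.34 with Torin1. Its Torin1 values again lay below all others, at -0.46 ± 0.08 from control (adjusted p = 0.00625), which is 72.5% of the control level. Against tamarixetin the differences with Torin1 were -0.40 for Srebf1 (adjusted p = 0.0068) and -0.37 for Srebf2 (adjusted p = 0.0156). The isoforms of Srebf1 and the cleaved proteins were not measured here.

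Neither gene of the processing machinery read here passed the test against control. Scap, which carries the precursors to the Golgi, read 4.08 and 4.03 in controls, 4.26 and 4.23 on the isorhamnetin arrays, 4.17 and 4.26 on the tamarixetin arrays and 4.09 and 4.0 with Torin1. The Torin1 and control values overlapped, and the difference was -0.02 with a 95% interval from -0.17 to 0.14 (adjusted p = 0.854). Against tamarixetin Torin1 was lower without overlap, at -0.17 with an interval from -0.33 to -0.02. This missed the threshold (adjusted p = 0.0666) but passed with median scaling (-0.28, adjusted p = 0.0444), with the filter asking for signal over background on each of the 8 arrays (adjusted p = 0.0462) and with trended, robust variances (adjusted p = 0.0238). Mbtps1, the protease that makes the first cut, read 4.39 and 4.55 in controls, 4.57 and 4.63 on the isorhamnetin arrays and 4.75 and 4.72 with Torin1. The Torin1 and control values did not overlap, but the difference of 0.27 ± 0.09 missed the threshold (adjusted p = 0.0603). Against tamarixetin, at 4.53 and 4.32, it was 0.31 and was called (adjusted p = 0.0414). The 4 Mbtps1 probes disagreed: their differences from control were 0.05, 0.27, 0.32 and 0.56, and the last pair passed over all kept probes (adjusted p = 0.0106 and 0.00389). Averaging the probes gave 0.30 (adjusted p = 0.0212). Of all the alternatives, this one included, 7 called Mbtps1 against control and 12 did not.

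**Figure D2:**
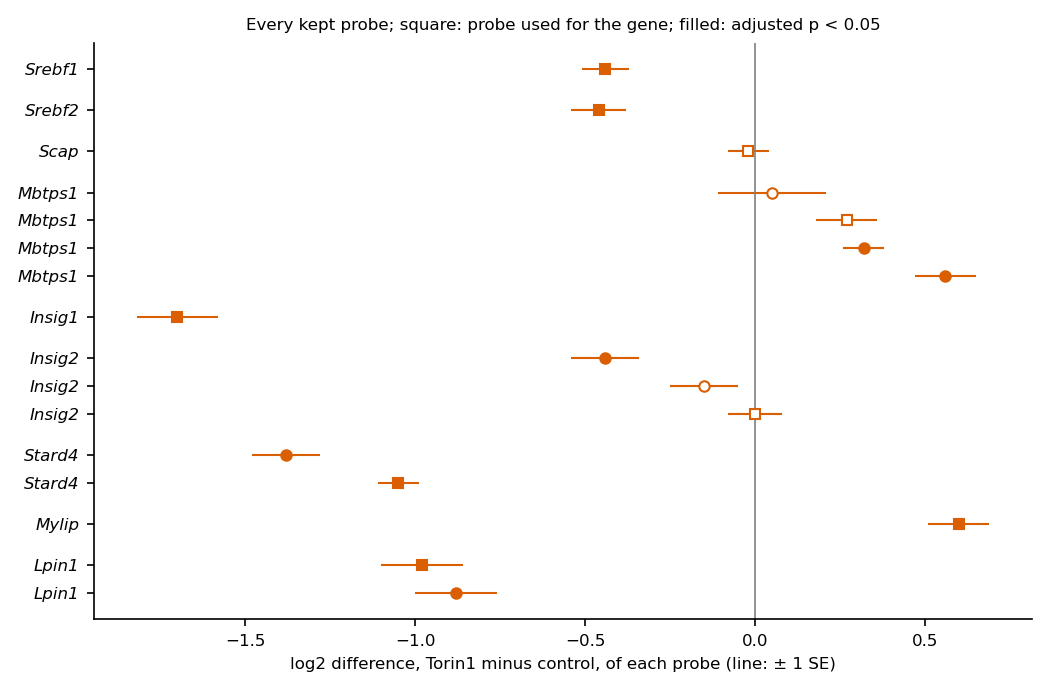
Log2 difference between Torin1 and control for each kept probe of the 9 genes, with the standard error as a bar. The probes of Stard4 (-1.05 and -1.38) and of Lpin1 (-0.98 and -0.88) all lie below 0. Those of Mbtps1 run from 0.05 to 0.56 and those of Insig2 from -0.44 to 0.00.

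Insig1 is itself a sterol-responsive SREBP target. Its level was -1.22 and -1.41 in controls, -1.33 and -1.59 on the isorhamnetin arrays, -1.39 and -1.52 on the tamarixetin arrays and -3.08 and -2.95 with Torin1. The Torin1 arrays stood apart from the other 6, whose values overlapped. The difference from control was -1.70 ± 0.12 (adjusted p = 0.000336), or 30.9% of the control level. The probe was well above background on 1 of the 2 Torin1 arrays, so the size of the fall depends on the background step: with normexp correction it was -0.86 (adjusted p = 0.000362), where Stard4 differed by -0.94. Against tamarixetin it was -1.56 (adjusted p = 0.000456).

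Insig2, the other retention protein, read 1.63 on both control arrays, 1.76 and 1.56 with isorhamnetin, and 1.64 and 1.62 both with tamarixetin and with Torin1. Its difference between Torin1 and control had a 95% interval from -0.19 to 0.18 (adjusted p = 0.98). That holds for the brightest of its 3 probes. Of the other two, one differed by -0.15 (adjusted p = 0.257) and one by -0.44 ± 0.10 (adjusted p = 0.0133), and the mean of the probes differed by -0.20 (adjusted p = 0.0261). Whether Insig2 is called with Torin1 thus depends on the probe read.

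The promoters of 8 of the 9 genes were matched to RefSeq windows on GRCm38.p6, 13 windows of 250 bases upstream of a start site. Stard4 is the gene left out, since no window on its chromosome was used for the 9 genes. Each was searched on both strands for the sterol regulatory element TCACNCCAC, the NF-Y box CCAAT (read ATTGG on the other strand) and the E-box TCACGTG. The 3 motifs do not overlap one another in the windows shown. Over all 32851 RefSeq windows of this length, 1.05%, 33.8% and 3.13% hold them. None of the 13 windows held the exact letters TCACNCCAC, which at 1.05% of all windows is the usual outcome for so few. Near matches were not searched, so this absence says nothing about these genes. Insig1 is shown as a sterol-responsive gene that fell, Srebf2 as the sterol-leaning factor that fell, and Mylip as the gene that rose. Each lies on the plus strand and the capitals mark matches. All 3 hold a match, but the windows of Lpin1, Mbtps1 and Scap and some of those of Insig2 and Srebf1 hold none. The E-box was found in the Insig1 window only.
Insig1, chr5:28071162-28071411: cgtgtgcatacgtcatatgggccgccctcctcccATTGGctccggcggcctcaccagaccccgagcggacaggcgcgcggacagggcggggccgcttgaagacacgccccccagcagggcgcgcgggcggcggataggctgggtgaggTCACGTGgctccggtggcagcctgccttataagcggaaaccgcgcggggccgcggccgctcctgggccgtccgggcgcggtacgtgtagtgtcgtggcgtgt
Srebf2, chr15:82147019-82147268: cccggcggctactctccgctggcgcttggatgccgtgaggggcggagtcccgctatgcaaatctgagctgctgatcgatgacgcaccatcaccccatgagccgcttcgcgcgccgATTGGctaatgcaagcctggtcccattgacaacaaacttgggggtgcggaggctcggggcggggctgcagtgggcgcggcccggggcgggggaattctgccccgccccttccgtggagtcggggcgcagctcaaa
Mylip, chr13:45389492-45389741: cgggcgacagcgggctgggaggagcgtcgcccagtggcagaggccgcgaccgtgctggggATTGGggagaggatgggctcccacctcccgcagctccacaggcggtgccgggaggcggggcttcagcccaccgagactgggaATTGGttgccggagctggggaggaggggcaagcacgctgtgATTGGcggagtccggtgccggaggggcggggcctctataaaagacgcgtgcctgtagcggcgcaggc
The Insig1 window holds the E-box starting 102 bases before the start site and an ATTGG at 216. The Srebf2 window has ATTGG at 135, and the Mylip window has it at 190, 108 and 67. Matches describe these letters in these windows, and no binding was measured.

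Stard4 makes a soluble carrier that moves sterol between membranes and is a known SREBP target. It read 1.87 and 1.83 in controls, 1.93 and 1.87 on the isorhamnetin arrays, 1.82 and 1.91 on the tamarixetin arrays and 0.79 and 0.80 with Torin1. Both Torin1 arrays lay below the other 6 arrays, at -1.05 ± 0.06 from control (adjusted p = 0.000173) or 48.3% of the control level. A fall this large or larger was seen for 2.44% of genes. For the other falls called with Torin1 that share was 0.534% for Insig1, 3.12% for Lpin1, 18.8% for Srebf2 and 20.4% for Srebf1. A rise as large as that of Mylip or larger was seen for 13.2% of genes. Its other probe fell by 1.38 on the log2 scale (adjusted p = 0.000353).

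Mylip, a ubiquitin ligase that limits lipoprotein uptake and a liver X receptor target, went the other way. It read 0.62 and 0.42 in controls, 0.97 and 0.88 on the isorhamnetin arrays, 0.61 and 0.60 on the tamarixetin arrays and 1.08 and 1.17 with Torin1. Torin1 arrays were the highest and the isorhamnetin arrays came next, above every control and tamarixetin array. The Torin1 difference was 0.60 ± 0.08 (adjusted p = 0.0028), or 152% of the control level, and it was 0.51 against tamarixetin (adjusted p = 0.00543). Protein levels were not measured.

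Lpin1, which turns phosphatidate into diacylglycerol and also acts in the nucleus, read -1.11 and -1.29 in controls, -1.41 and -1.71 on the isorhamnetin arrays, -1.38 and -1.49 on the tamarixetin arrays and -2.14 and -2.21 with Torin1. Each treated array lay below both controls, the Torin1 arrays lowest. The Torin1 difference was -0.98 ± 0.12 (adjusted p = 0.0018), or 50.9% of the control level, and its other kept probe gave -0.88 (adjusted p = 0.00277). With normexp background correction the value was -0.58 (adjusted p = 0.00281). Against tamarixetin it was -0.74 (adjusted p = 0.00511). Its relatives Lpin2 and Lpin3 differed by -0.13 (adjusted p = 0.133) and 0.27 (adjusted p = 0.115) and were not called.

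**Figure D3:**
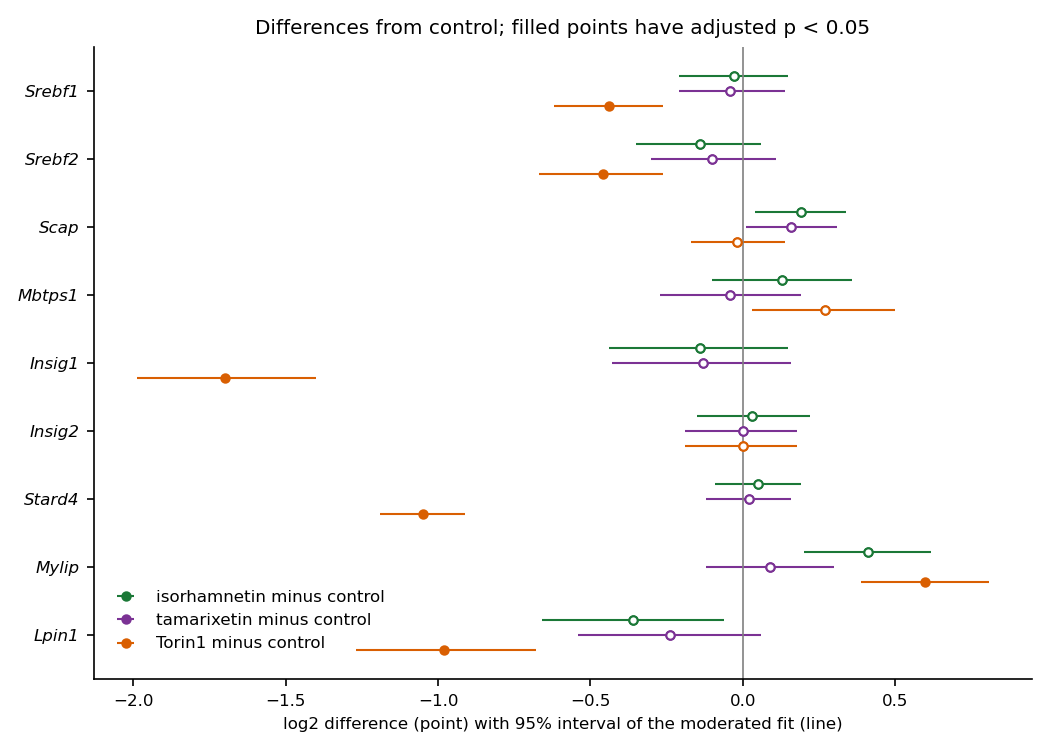
Log2 difference from control for the 9 genes under isorhamnetin, tamarixetin and Torin1, with the 95% interval as a bar. With Torin1 the difference runs from -1.70 for Insig1 to 0.60 for Mylip, and the flavonol differences lie between -0.36 and 0.41.

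Against tamarixetin, Torin1 gave 7 calls of 9, 2 higher and 5 lower, where 43.8% of all genes were called (18.7% higher and 25.2% lower). These are the 6 called against control and Mbtps1. Of these, Mbtps1 was no longer called without any 1 isorhamnetin or Torin1 array or without tamarixetin replicate 2 (adjusted p up to 0.144). It was also lost with median scaling (0.20, adjusted p = 0.313), with no filter on dim probes (adjusted p = 0.151), with only the 2 groups fitted (adjusted p = 0.0907) and with the replicate block (adjusted p = 0.074). Srebf2 was lost without tamarixetin replicate 2 or Torin1 replicate 1 (adjusted p = 0.0645 and 0.0715), with no filter on dim probes (adjusted p = 0.0805) and with only the 2 groups fitted (adjusted p = 0.067). Both comparisons use the same Torin1 arrays.

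With isorhamnetin none of the 9 was called by limma, where 0.562% of all genes were; 3 had an unadjusted p under 0.05, and a fit with trended, robust variances called 1, Mylip (adjusted p = 0.042). Mylip differed from control by 0.41 ± 0.08, with a 95% interval from 0.20 to 0.62 (adjusted p = 0.119). Lpin1 differed by -0.36, with an interval from -0.66 to -0.06 (adjusted p = 0.25), and Scap by 0.19, from 0.04 to 0.34 (adjusted p = 0.243). Srebf2 differed by -0.14 and Insig1 by -0.14, and the remaining 4 lay between -0.03 and 0.13.

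With tamarixetin none of the 9 was called, where 0.079% of all genes were, a share of 17 genes that leaving out 1 array moved to none (without either control) or to 140 higher and 14 lower (without tamarixetin replicate 1). Of the 9, 1 had an unadjusted p under 0.05. That gene was Scap, at 0.16 with an interval from 0.01 to 0.31 (adjusted p = 0.361). Lpin1 differed by -0.24, from -0.54 to 0.06 (adjusted p = 0.464), and Mylip by 0.09, from -0.12 to 0.30 (adjusted p = 0.67). The 3 compounds were compared with the same control arrays, so their differences from control share the control arrays' error.

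Set directly against each other at the same dose and time, the isomers gave no call among the 9 genes, where 0.776% of all genes were called (114 higher and 53 lower, and 24 and 17 without isorhamnetin replicate 1). This is 1 pair of compounds, with p-values adjusted over all genes, and 1 of the 9 genes had an unadjusted p under 0.05. For Mylip isorhamnetin was higher by 0.32 ± 0.08, with an interval from 0.11 to 0.53 (adjusted p = 0.229). Mbtps1 differed by 0.17, from -0.06 to 0.41, Lpin1 by -0.12, from -0.42 to 0.18, and Insig1 by -0.01, from -0.30 to 0.29. For Srebf1 the interval ran from -0.17 to 0.18, for Insig2 from -0.15 to 0.22, for Srebf2 from -0.25 to 0.16, for Scap from -0.12 to 0.18 and for Stard4 from -0.11 to 0.18. The intervals reach 0.41 for Mbtps1 and -0.42 for Lpin1, so equal action of the isomers on these genes is not shown.

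The other genes of the pathway were read from 7 lists written from general knowledge, 85 genes of which 81 were tested. With Torin1 61 of the 81 were called, where 49.1% of all genes were (29.1% lower and 20% higher, the shares against which the counts by list below are to be read). All 19 tested genes of sterol synthesis fell, with a median of -1.04. Idi1, which isomerises isopentenyl diphosphate, was among them at -1.69 ± 0.05 (adjusted p = 4.05e-05). So was Msmo1, which acts in the removal of sterol methyl groups, at -1.59 (adjusted p = 9.01e-05). Of 11 fatty acid synthesis genes 10 fell, with a median of -0.79. The stearoyl desaturase Scd2 fell by 1.91 on the log2 scale, the desaturase Fads2 by 1.04 and the elongase Elovl6 by 1.02 (all 3 adjusted p at or below 0.000332), while Elovl5 differed by 0.05 (adjusted p = 0.51).

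Genes of SREBP processing and sterol-regulated degradation other than the 9 were partly lower: 7 of 13 fell and none rose, with a median of -0.26. The ubiquitin-conjugating enzyme Ube2g2 differed by -0.65, Ubxn8 by -0.48 and the ligase Rnf145 by -0.37, each called. Mbtps2, the protease that makes the second cut, differed by -0.11 (adjusted p = 0.143) and was not called, and neither was the Mbtps1 cofactor Spring1, at -0.03 (adjusted p = 0.811). With quantile normalization 1 gene of this list was called higher and 6 lower.

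Uptake and transport genes split: 3 of 11 rose and 5 fell, with a median of -0.04, and with quantile normalization 5 rose and 5 fell. The lysosomal sterol exporters Npc1 and Npc2 rose by 0.94 and 0.40 and the lysosomal acid lipase Lipa by 0.77, while the HDL receptor Scarb1 (-0.72) and the sterol carrier Stard5 (-0.53, adjusted p = 0.0421) fell. Stard5 was no longer called without any 1 control or Torin1 array (adjusted p up to 0.168), nor Npc2 with median scaling (0.21, adjusted p = 0.192). Of 11 liver X receptor genes and targets, 6 rose and 3 fell, with a median of 0.36. Those that rose include a receptor and its partners as well as targets, while the 3 that fell are all targets. The median is thus not that of the targets alone. The exporter Abcg1 rose by 1.49, the phosphodiesterase Smpdl3a by 1.31 and the receptor Nr1h3 by 1.23. Lpl fell by 1.12, Lpcat3 by 0.65 and Apoe by 0.54 on the log2 scale. With median scaling 5 of this list rose and 4 fell.

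**Figure D4:**
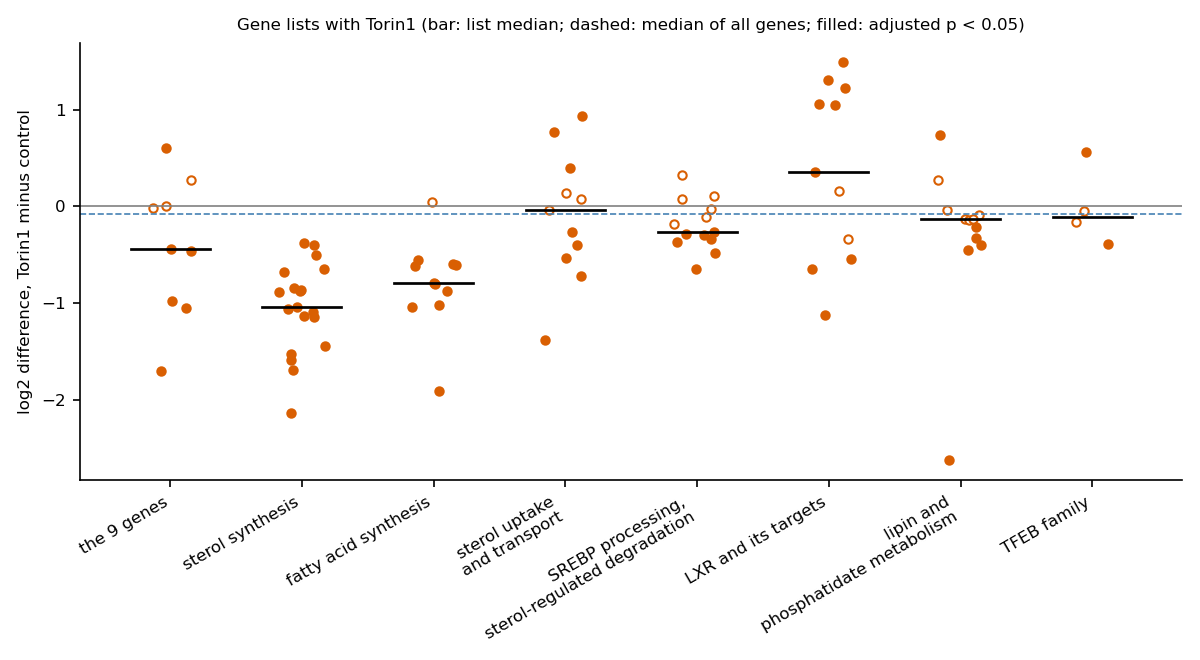
Log2 difference between Torin1 and control for each tested gene of the 7 pathway lists and of the 9 genes, 1 point per gene, with the list median as a bar. Sterol synthesis lies wholly below 0 with a median of -1.04. The list that pools liver X receptors, their partners and targets has a median of 0.36, with targets on both sides of 0.

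In the lipin family and phosphatidate list 1 gene of 12 rose, Cds2 (0.74), and 5 fell, with a median of -0.14; 6 called of 12 is near the 49.1% of all genes called. Gpat3, a glycerol phosphate acyltransferase, was well above background on both control arrays, at -0.93 and -1.09, and on neither Torin1 array (adjusted p = 3.08e-05). The size of its fall rests on the background step, and with normexp correction the log2 difference was -1.17. Agpat3 differed by -0.45 and Dgat2 by -0.40, both called; Dgat2 was not called without control replicate 2 or any 1 Torin1 array (adjusted p up to 0.0873). The lower calls came to 2 without control replicate 2 or without either Torin1 replicate and to 8 with median scaling. In the TFEB family Mitf rose by 0.56 (adjusted p = 0.0021) and Tfeb fell by 0.39 on the log2 scale (adjusted p = 0.0419), a call lost with normexp correction and without control replicate 2 or any 1 Torin1 or tamarixetin array (adjusted p up to 0.179); with median scaling no gene of the family rose and 2 fell.

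With isorhamnetin 3 of the 81 list genes were called, where 0.562% of all genes were: Lipa at 0.83 (adjusted p = 0.0133), the receptor partner Rxra at 0.74 (adjusted p = 0.0195) and Smpdl3a at 0.49 (adjusted p = 0.0488). With tamarixetin none was. The same 3 were called between the isomers, where 0.776% of all genes were, higher with isorhamnetin by 0.91 for Lipa (adjusted p = 0.0064), 0.68 for Rxra (adjusted p = 0.0233) and 0.49 for Smpdl3a (adjusted p = 0.0431). Leaving out 1 array cost most of these calls. Against control, Lipa and Rxra were no longer called without any 1 control, isorhamnetin or Torin1 array, nor with median scaling (adjusted p up to 0.101 and 0.127), and Smpdl3a was not called without any 1 of the 8 arrays (up to 0.238). Between the isomers Lipa was called under all 12 scalings and leave-outs tried (adjusted p up to 0.0425), while Rxra was not called without any 1 control, isorhamnetin or Torin1 array (up to 0.147) and Smpdl3a without any 1 array (up to 0.185).

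Genes whose levels over the 8 arrays most resembled those of the members were found by Pearson's r among 3312 candidates, as a description. These r values rest mainly on the gap between the Torin1 arrays and the rest. Nearest to Insig1 were Scfd2 (0.997), Parvg (0.996) and the sterol dehydrogenase Nsdhl (0.996), and nearest to Stard4 were Tyms-ps (0.998), Slc35b4 (0.998) and Ppih (0.997). For Lpin1 they were Parp10 (0.99), Twsg1 (0.984) and E2f4 (0.983). For Mylip, whose isorhamnetin arrays also lay above the controls, they were Zfp90 (0.982), Magi2 (0.965) and Stab1 (0.962). The other 5 members spanned under 0.5 log2 units between group means and were not matched.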

How the data were processed

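RNA from 8 cultures was read on one-colour arrays (Cy3), 1 array per sample. The deposited scanner files hold background-subtracted signal intensity per spot, made with Agilent Feature Extraction 10.7.1.1 per the file headers. The authors' deposited log2 values, centred per probe, served as an alternative: they matched the scaling used here within 0.01 log2 for 100% of 56282 probes after 1 constant per array of at most 0.03. Spots of a probe were averaged, log2 was taken and each array's 75th percentile over non-control probes was subtracted. Probes were kept (27562) if some group had both of its arrays well above background, and the brightest probe stood for a gene. Outlier-flagged spots were dropped before averaging, and the 323 probes left with no spot on some array were left out. Probes were named through their accession in RefSeq (32994 of 56605). Those without a match were grouped by the array's own target name and counted as genes. One limma 3.58.1 fit (R 4.3.3) held all 8 arrays, with 4 residual degrees of freedom and two-sided tests. It was also run on simulated data with far fewer changed genes than were called with Torin1, so that run does not bear on the calls given here. The number of arrays limits the precision. No probe coordinates were used, since the array was designed on another build than RefSeq's table.

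Named genes are the 9 members, up to 3 called genes per list, comparison and direction with the largest differences (some list genes are not reported here by name), and the 3 most similar genes for members spanning 0.5 log2. Where a list gene that was not called is named, it was chosen after its value was seen. Members and lists were chosen with earlier results of these data known. Alternatives were another background correction, scaling, filter, probe rule, model and sample set.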

Additional observations from a re-analysis of the deposited data

How the results depend on the processing

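The 6 Torin1 calls against control kept direction and threshold under every alternative in which the gene was tested (Insig1 drops out when probes must be above background on all 8 arrays); the highest adjusted p was 0.0355, for Srebf2. The count of members called was 6 to 8 there (6 to 7 leaving out 1 array), 5 to 8 against tamarixetin (5 to 7 leaving out 1 array) and 0 for tamarixetin and for the isomers. For isorhamnetin it was 0, and 1 with trended, robust variances (Mylip). Mbtps1 with Torin1 ranged from 0.08 to 0.45 (adjusted p 0.679 to 0.00768). Median scaling moved the median of all genes with Torin1 from -0.08 to -0.27 and the split of calls from 4314 higher and 6263 lower to 2568 and 8688. Leaving out 1 array lowered the calls over all genes with isorhamnetin from 121 to as few as 4 higher and 1 lower. The 75th percentile over spots and the probe-level fit were chosen after seeing the data. The cause of these shifts was not tested.

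Signs of small differences that were not called turned as follows. With isorhamnetin, Insig2 was -0.02 and Stard4 -0.0044 under median scaling, and -0.04 and -0.11 with averaged probes. With tamarixetin, Insig2 was 0.02 (normexp) and 0.01 (quantile), and Stard4 -0.06 (median scaling), -0.08 (averaged probes) and -0.01 (authors' values). With Torin1, Scap was 0.01 (normexp), 0.10 (quantile) and 0.01 (spots), and Insig2 0.08 (quantile) and 0.02 (spots). Between isomers, Insig1 was 0.07 (normexp), 0.08 (quantile) and 0.02 (median scaling and authors' values), and Stard4 -0.03 (averaged probes). For Torin1 against tamarixetin, Insig2 was 0.07 (quantile), 0.01 (authors' values) and 0.04 (spots). Leaving out 1 array, the ranges were: isorhamnetin, Srebf1 -0.12 to 0.06 and Insig2 -0.06 to 0.13; tamarixetin, Srebf1 -0.13 to 0.05, Mbtps1 -0.15 to 0.06, Insig2 -0.01 to 0.01, Stard4 -0.03 to 0.07 and Mylip -0.01 to 0.19; Torin1, Scap -0.06 to 0.03 and Insig2 -0.01 to 0.01. Between isomers they were Srebf1 -0.01 to 0.02, Srebf2 -0.11 to 0.02, Scap -0.02 to 0.08, Insig1 -0.14 to 0.12, Insig2 -0.06 to 0.13, Stard4 -0.01 to 0.08 and Lpin1 -0.27 to 0.03, and for Torin1 against tamarixetin Insig2 was -0.01 to 0.01.

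The replicate numbers share no stated batch, and same-numbered arrays did not deviate together (r from -0.13 to 0.08). With the replicate number as a block, 6 members were called with Torin1 against control, 6 against tamarixetin and 0 in the other 3 comparisons. Low signal limits Insig1, which was well above background on 7 of 8 arrays.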
